A study of Homo sapiens with 6 samples.

Results

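The genes described here are 9 genes of MHC class I antigen presentation, HLA-B, HLA-C, HLA-E, HLA-F, B2M, TAP1, TAP2, TAPBP and ERAP1, taken by name from a table of 22481 genes. All 9 were present in the table, and all 9 had enough reads to be tested. The comparison was of 143B cells given celastrol for 24 h (n = 3 wells) with 143B control wells cultured for the same 24 h (n = 3 wells). 143B is an established human osteosarcoma cell line, and celastrol is a triterpene first obtained from the thunder god vine Tripterygium wilfordii. The labels give no celastrol dose and do not say whether control wells received a vehicle. The wells came from a 6-well plate and were allotted at random, so p-values measure the spread between wells, which may be technical. The labels state no question about antigen presentation; the title is about cell death, autophagy and the PI3K pathway.

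MHC class I molecules show short peptides from inside the cell to CD8 T cells at the cell surface. Proteasomes cut proteins into peptides, the transporter TAP (a pair of TAP1 and TAP2 proteins) pumps them into the endoplasmic reticulum, the peptidase ERAP1 trims them, and tapasin (TAPBP) holds empty class I molecules at the transporter until a fitting peptide binds. Each class I molecule is a heavy chain encoded by an HLA gene joined to the shared light chain beta-2-microglobulin (B2M). HLA-B and HLA-C are classical, highly polymorphic heavy chains, while HLA-E and HLA-F vary little and are read by receptors of natural killer cells among others. Transcription of genes in this pathway is known to respond to interferon through IRF factors and to NF-kB. Several of them, though not all, are known to respond to the coactivator NLRC5.

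The heavy chain genes were lower with celastrol while the light chain gene was not detectably changed, and the transporter genes went opposite ways. HLA-B fell by 51.0%, HLA-F fell by 51.7%, HLA-C fell by 33.5% and HLA-E fell by 11.5%. TAP1 fell by 32.9%, TAPBP fell by 19.1%, TAP2 rose 1.46-fold, and B2M and ERAP1 did not pass the test. In edgeR's quasi-likelihood test, with p-values adjusted by Benjamini and Hochberg's method over 15387 genes and called under 0.05, 6 of the 9 genes were called lower and 1 higher. Of all genes tested, 24.8% were called lower and 23.6% higher, 48.4% in all, so a call alone says little here. A call with a change of at least 2-fold downward was made for HLA-B and HLA-F, and for 6.05% of all genes, and one of at least 1.5-fold either way for HLA-B, HLA-C and HLA-F, against 21% of all genes. The median log2 fold change of the 9 genes was -0.31, against -0.000237 over all genes tested. The values of the celastrol and control wells did not overlap for 8 of the 9 genes, against 56.9% of all genes. RNA was measured in bulk, so fewer cells with a transcript and less of it per cell cannot be told apart.

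Library totals ran from 38887144 to 39453778 counts with celastrol and from 38408143 to 39412136 in controls. The floor set by 3 counts was 0.0760 to 0.0781 CPM (counts scaled to a common library total), which covers counting error only. Along the leading principal component (62.6% of variance) control replicate 1, at 30.15, lay nearest the celastrol libraries, which ran from -45.0 to -35.3. The markers of mesenchymal and osteoblast cells summed to 2939 to 3012 CPM with celastrol and 3730 to 3951 CPM in controls, most of it VIM, while COL1A2, SP7 and BGLAP were near 0 in every library. Of the leukocyte list, 3 of 12 genes could be tested. CD68, a lysosomal membrane protein that is not limited to leukocytes, made up nearly all of its sum of 141 to 165 CPM with celastrol and 194 to 207 CPM in controls, and PTPRC, the defining pan-leukocyte marker, had 0, 0 and 0.152 CPM with celastrol and 0, 0.0263 and 0 CPM in controls. Their part in the results below was not tested.

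**Figure D1:**
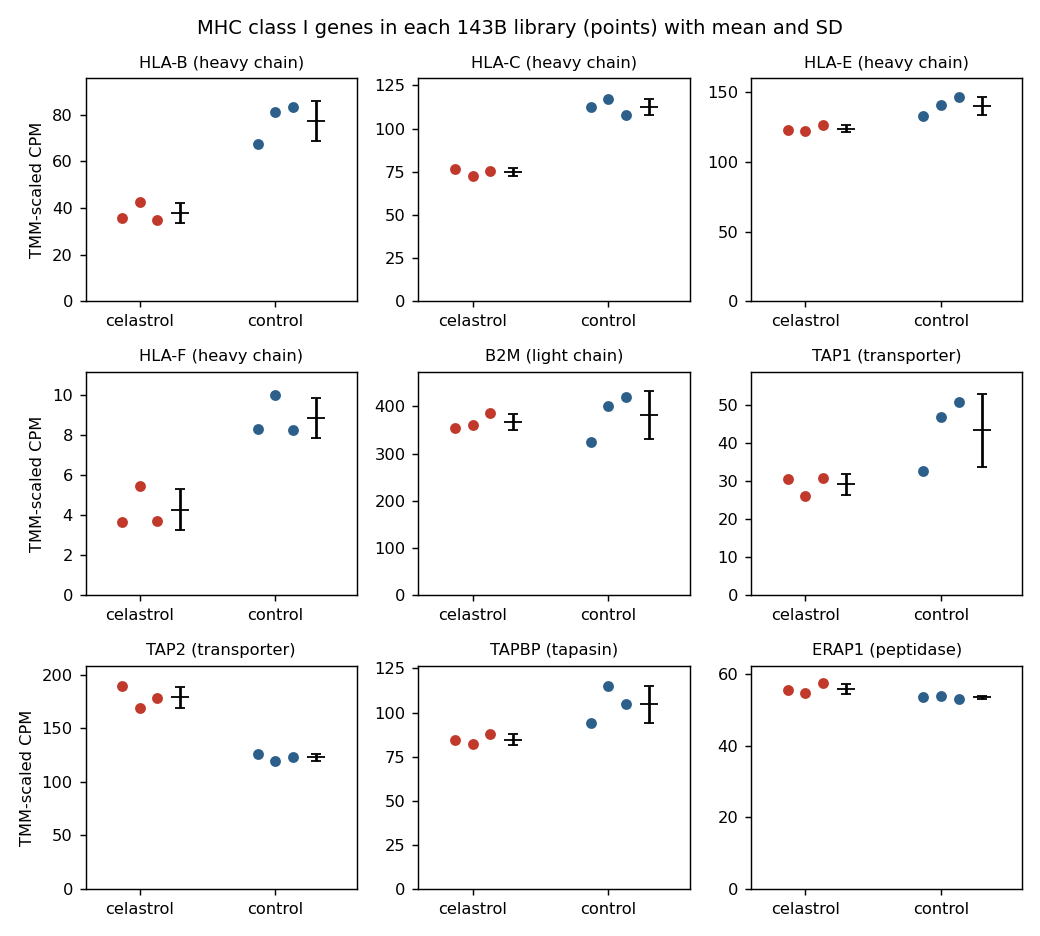
TMM-scaled CPM (y axes, linear, from 0) of the 9 genes in each library, celastrol at the left and control at the right of each panel; points are libraries and the bar beside them is the mean ± SD (n = 3). HLA-B, HLA-C and HLA-F separate clearly, TAP2 is higher with celastrol, and B2M overlaps between the groups.

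HLA-B (NCBI gene 3106, chromosome 6, 31353875 to 31357179, minus strand) encodes a classical heavy chain that presents peptides to CD8 T cells. It had 35.9, 42.7 and 35.0 CPM in celastrol replicates 1, 2 and 3, against 67.3, 81.3 and 83.2 CPM in control replicates 1, 2 and 3. The highest celastrol well lay well below the lowest control well. The log2 fold change was -1.03 ± 0.096 (SE, adjusted p = 2.04e-07), and 6.84% of all genes tested had a lower one. The classical heavy chain gene HLA-C (gene 3107, chromosome 6, 31268749 to 31272092, minus strand) had 76.7, 72.4 and 75.4 CPM with celastrol and 113, 117 and 108 CPM in controls. Its wells were tightly grouped, and its log2 fold change was -0.59 ± 0.067 (adjusted p = 1.37e-06).

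The promoters of these heavy chain genes are shown because both genes fell and the windows differ in the patterns they hold. They are RefSeq sequences of GRCh38.p14 from 250 bases before to 50 after the annotated start, on the minus strand, at chr6:31357130-31357429 for HLA-B and chr6:31272043-31272342 for HLA-C. They are the reference sequence, and the alleles of 143B were not read. Capitals mark matches on either strand to an NF-kB site pattern (GGG, then 2 bases of any kind, TT, any base and CC) or to an IRF element pattern (GAAA, then 2 bases of any kind, and GAAA again).
HLA-B: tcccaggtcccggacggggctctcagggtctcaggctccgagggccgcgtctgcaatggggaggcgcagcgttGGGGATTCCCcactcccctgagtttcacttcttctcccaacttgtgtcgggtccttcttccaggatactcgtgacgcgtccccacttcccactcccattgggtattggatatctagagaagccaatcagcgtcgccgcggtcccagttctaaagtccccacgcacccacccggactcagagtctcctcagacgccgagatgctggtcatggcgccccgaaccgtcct
HLA-C: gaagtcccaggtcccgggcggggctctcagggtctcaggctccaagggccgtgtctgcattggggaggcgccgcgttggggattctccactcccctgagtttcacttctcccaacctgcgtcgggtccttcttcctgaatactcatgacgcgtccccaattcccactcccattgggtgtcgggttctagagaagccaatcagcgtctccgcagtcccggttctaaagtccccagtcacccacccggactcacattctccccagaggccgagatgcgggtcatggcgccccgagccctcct
HLA-B holds 1 NF-kB pattern at position -177, counted from the start site as 0, and HLA-C holds none of either pattern. Both hold the cAMP response element core TGACG, at -106 in HLA-B and -105 in HLA-C, and CCAAT boxes in either orientation. Class I promoters are known for such elements, in a module that NLRC5 acts on.

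HLA-F (gene 3134, chromosome 6, 29723434 to 29738532, plus strand), a weakly expressed non-classical heavy chain, had 3.63, 5.47 and 3.73 CPM with celastrol and 8.32, 9.98 and 8.26 CPM in controls. These rest on 146 to 216 counts with celastrol and 318 to 379 in controls. Celastrol replicate 2 was the highest of its group but stayed below every control. The log2 fold change was -1.05 ± 0.19 (adjusted p = 0.000149), and -0.52 on the log2(FPKM + 1) scale, which understates changes of low genes. The antisense transcript HLA-F-AS1, which shares 12.3% of the exon bases of HLA-F in GENCODE 29, fell as well (-1.40 ± 0.23, adjusted p = 5.99e-05), at 2.14, 2.66 and 1.98 CPM with celastrol and 4.63, 7.61 and 5.71 CPM in controls. The libraries keep the strand, but no source used here says whether the counting used it, so reads of this sense and antisense pair may not have been told apart. The same limit holds for other opposite-strand gene models, AL671883.2 on 17.8% of the exon bases of HLA-B, AL645939.1 on 16.1% of those of HLA-F, and PSMB8-AS1 on 9.49% of those of TAP1.

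HLA-E (gene 3133, chromosome 6, 30489509 to 30494194, plus strand), whose product carries leader peptides of other class I molecules to natural killer cells, had 123, 122 and 126 CPM with celastrol and 133, 141 and 147 CPM in controls. The groups did not overlap, but the difference was small at a log2 fold change of -0.18 ± 0.063 (adjusted p = 0.0270). Over 16 alternative settings the adjusted p ranged from 0.00479 to 0.0954, and the call was lost in 8 of them. These were library-size scaling alone (0.0771), limma on log2(FPKM + 1) (0.0554) or log2(FPKM + 0.1) (0.0577), and leaving out celastrol replicate 1 (0.0880), 2 (0.0788) or 3 (0.0578) or control replicate 2 (0.0677) or 3 (0.0954).

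Class I heavy chain genes resemble each other, and no source used here says how reads matching several of them were handled. Of all 50-base windows of the longest coding transcript of each gene in GENCODE 29, 2.54% in HLA-B, 6.71% in HLA-C, 5.13% in HLA-E and 1.94% in HLA-F also occur in a transcript of another gene. These shares hold for the reference alleles. Reads from alleles that differ from the reference may align less well, at a rate that was not measured, and this bears on levels more directly than on the comparison of wells of a single line.

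B2M (gene 567, chromosome 15, 44711517 to 44718145, plus strand), the light chain of every class I molecule, lies outside the MHC region. It had 355, 361 and 387 CPM with celastrol and 324, 401 and 419 CPM in controls. Control replicate 1 was the lowest of all 6 libraries and the other controls were the highest, so the groups overlapped. The log2 fold change was -0.05 ± 0.079 (adjusted p = 0.605), and a difference was not detectable at this spread. Without control replicate 1 B2M was called lower (-0.16, adjusted p = 0.0205), and without control replicate 3 the sign turned (0.019, adjusted p = 0.868). The range of adjusted p over its 16 alternatives was 0.0205 to 0.973. The same control well was also the lowest control for HLA-B, HLA-E, TAP1 and TAPBP, in a group without order among its replicates. The B2M promoter (GRCh38.p14 plus strand, chr15:44711267-44711566) is shown with the same capitals, as a gene that holds both patterns and did not pass the test.
B2M: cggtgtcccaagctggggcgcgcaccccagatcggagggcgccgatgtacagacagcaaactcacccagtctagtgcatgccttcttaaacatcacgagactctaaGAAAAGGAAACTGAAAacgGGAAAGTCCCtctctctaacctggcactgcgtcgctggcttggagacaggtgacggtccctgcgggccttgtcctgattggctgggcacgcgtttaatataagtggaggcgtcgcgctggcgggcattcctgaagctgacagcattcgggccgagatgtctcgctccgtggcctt
It holds 2 overlapping IRF patterns at -144 and -138 and 1 NF-kB pattern at -125.

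The TAP transporter genes moved in opposite directions. TAP1 (gene 6890, chromosome 6, 32845209 to 32853704, minus strand) had 30.5, 26.1 and 30.8 CPM with celastrol and 32.6, 46.8 and 50.9 CPM in controls. Control replicate 1 lay only just above the celastrol wells. The log2 fold change was -0.58 ± 0.14 (adjusted p = 0.0037), and the call held in all 16 alternatives, within -0.75 (without control replicate 1) and -0.45 (without control replicate 3). TAP2 (gene 6891, chromosome 6, 32821831 to 32838739, minus strand) had 189, 169 and 178 CPM with celastrol and 126, 120 and 123 CPM in controls. All celastrol wells were above all controls, the log2 fold change was 0.54 ± 0.063 (adjusted p = 2.06e-06), and 86.7% of genes tested had a lower one. TAP2 shares 32.3% of its exon bases with another GENCODE 29 gene model on the same strand, AL669918.1, and 35.8% of its 50-base windows occur there too. The class II gene HLA-DOB, next to TAP2, had 0.378 ± 0.0679 CPM with celastrol and 0.609 ± 0.0581 CPM in controls (SD, n = 3).

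The promoters of the transporter genes are shown because their genes differed in direction. Both are on the minus strand of GRCh38.p14, at chr6:32853655-32853954 for TAP1 (the more upstream of 2 annotated starts) and chr6:32838690-32838989 for TAP2, with the same capitals.
TAP1: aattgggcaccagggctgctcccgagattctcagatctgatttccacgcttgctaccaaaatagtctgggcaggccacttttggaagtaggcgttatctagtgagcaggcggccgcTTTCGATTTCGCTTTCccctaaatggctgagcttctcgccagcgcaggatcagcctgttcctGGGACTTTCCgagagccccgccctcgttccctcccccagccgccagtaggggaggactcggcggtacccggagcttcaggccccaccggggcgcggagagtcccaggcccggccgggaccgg
TAP2: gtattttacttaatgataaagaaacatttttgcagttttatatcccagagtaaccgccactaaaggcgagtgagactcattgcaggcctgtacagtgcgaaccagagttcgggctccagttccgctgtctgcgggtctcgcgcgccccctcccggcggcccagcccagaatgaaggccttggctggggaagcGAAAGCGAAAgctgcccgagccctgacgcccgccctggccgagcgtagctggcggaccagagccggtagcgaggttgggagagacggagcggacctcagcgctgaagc
TAP1 holds 2 overlapping IRF patterns at -134 and -128 and 1 NF-kB pattern at -72. TAP2 holds 1 IRF pattern at -58 and no NF-kB pattern. The start of TAP1 lies 488 bases from that of PSMB9, which is read the other way from a shared promoter region.

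TAPBP (gene 6892, chromosome 6, 33299694 to 33314078, minus strand), which encodes tapasin, had 84.2, 81.9 and 87.9 CPM with celastrol and 94.0, 115 and 105 CPM in controls. The groups did not overlap, and the log2 fold change was -0.31 ± 0.076 (adjusted p = 0.00289). ERAP1 (gene 51752, chromosome 5, 96760813 to 96935854, minus strand), the trimming peptidase, had 55.5, 54.9 and 57.5 CPM with celastrol and 53.8, 53.9 and 53.2 CPM in controls. Every celastrol well was above every control, but by so little that it did not pass the test (0.06 ± 0.073, adjusted p = 0.513), nor did it in any of its 16 alternatives (0.253 to 0.769).

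RefSeq promoter windows were at hand for 8 of the 9 genes, with none for HLA-E. The IRF pattern occurred in a window of 6 of these 8 genes (HLA-F, B2M, TAP1, TAP2, TAPBP and ERAP1). By window this was 6 of 10, against 3.57% of 35114 windows of all genes. The NF-kB pattern occurred in 5 of 8 genes (HLA-B, B2M, TAP1, TAPBP and ERAP1) and 5 of 10 windows, against 5.68%. The core TGACG was found in 4 of 8 genes and 4 of 10 windows, against 24.6%. The CCAAT box was found in 6 of 8 genes and 6 of 10 windows, against 34.6%, counting both strands. TAP1 and ERAP1 have 2 windows each, which gives them more bases in which to match. TAP2, the gene that rose, holds the IRF pattern, as do TAP1, HLA-F and TAPBP, which fell. The NF-kB pattern is in HLA-B, TAP1 and TAPBP, which fell, and in B2M and ERAP1, which did not pass. TAP2 and HLA-F do not hold it, and HLA-C fell without an exact match to either pattern. Any link of the patterns to direction was not tested. The patterns were chosen after the windows had been seen, and a match is a description, not a bound site.

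**Figure D2:**
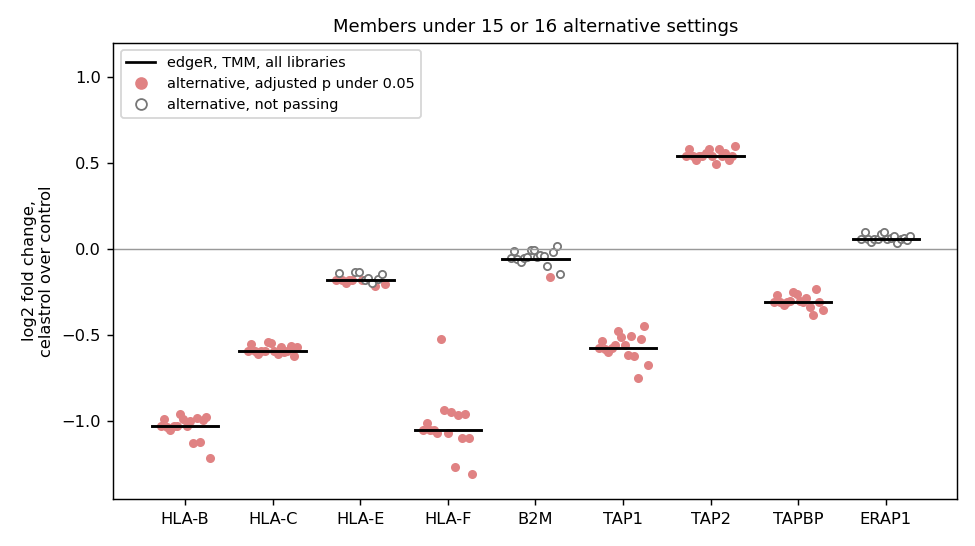
Log2 fold change, celastrol over control (y axis), of each gene under 15 alternative settings for HLA-F and 16 for the others (points), with the value of the edgeR test on all libraries as a black line; filled points pass an adjusted p of 0.05. All points of HLA-B, HLA-C, HLA-F, TAP1, TAP2 and TAPBP are filled, while HLA-E has 8 open points.

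Levels of different genes were compared per length, in FPKM as the authors calculated it. With celastrol the order was B2M at 131 ± 5.46, HLA-C at 49.2 ± 1.46, HLA-E at 42.6 ± 0.612, TAP2 at 29.6 ± 1.69, HLA-B at 25.0 ± 2.82, TAPBP at 21.6 ± 0.683, TAP1 at 10.4 ± 0.923, ERAP1 at 5.56 ± 0.112 and HLA-F at 0.751 ± 0.183 FPKM (SD, n = 3). In controls it was B2M at 132 ± 16.9, HLA-C at 71.9 ± 3.47, HLA-B at 49.5 ± 5.33, HLA-E at 46.8 ± 1.95, TAPBP at 25.9 ± 2.64, TAP2 at 19.7 ± 0.546, TAP1 at 15.0 ± 3.23, ERAP1 at 5.18 ± 0.0752 and HLA-F at 1.51 ± 0.172 FPKM. HLA-B thus stood below HLA-E and TAP2 with celastrol and above TAP2 in controls, and TAP2 stood above TAPBP with celastrol and below it in controls. Neighbours whose libraries overlapped were TAP2 and HLA-B with celastrol (28.04 to 31.4 and 23.0 to 28.2 FPKM) and HLA-B and HLA-E in controls (43.4 to 52.9 and 44.7 to 48.6 FPKM). B2M was higher than 98.3% of all genes in the table with celastrol and 98.4% in controls, and HLA-F was higher than 46.6% and 51.9%.

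Ratios within a library put these differences side by side. The summed FPKM of HLA-B, HLA-C, HLA-E and HLA-F divided by that of B2M was 0.927, 0.923 and 0.847 in the celastrol wells, against 1.44, 1.26 and 1.19 in the control wells. The groups did not overlap, and the log2 ratio was -0.15 ± 0.0733 with celastrol and 0.37 ± 0.139 in controls (SD, n = 3), a difference of -0.52. The two-sided exact permutation p was 0.1, the smallest that 3 wells against 3 allow. The percent of all counts taken by these heavy chain genes and B2M together was 0.0605, 0.0613 and 0.0633 with celastrol and 0.0639, 0.0742 and 0.0747 in controls (means 0.0617 ± 0.00145 and 0.0709 ± 0.0061, exact permutation p = 0.1). Without HLA-C and HLA-F in the sum the groups overlapped (0.0537 ± 0.00152 with celastrol and 0.0590 ± 0.00617 in controls, exact permutation p = 0.4). The ratio of TAP2 to TAP1 was 2.88, 3.02 and 2.69 with celastrol and 1.80, 1.19 and 1.13 in controls. That of HLA-B to HLA-E was 0.559, 0.671 and 0.531 with celastrol and 0.971, 1.11 and 1.09 in controls. Both of these pairs of genes were chosen after their values had been seen and were not tested.

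**Figure D3:**
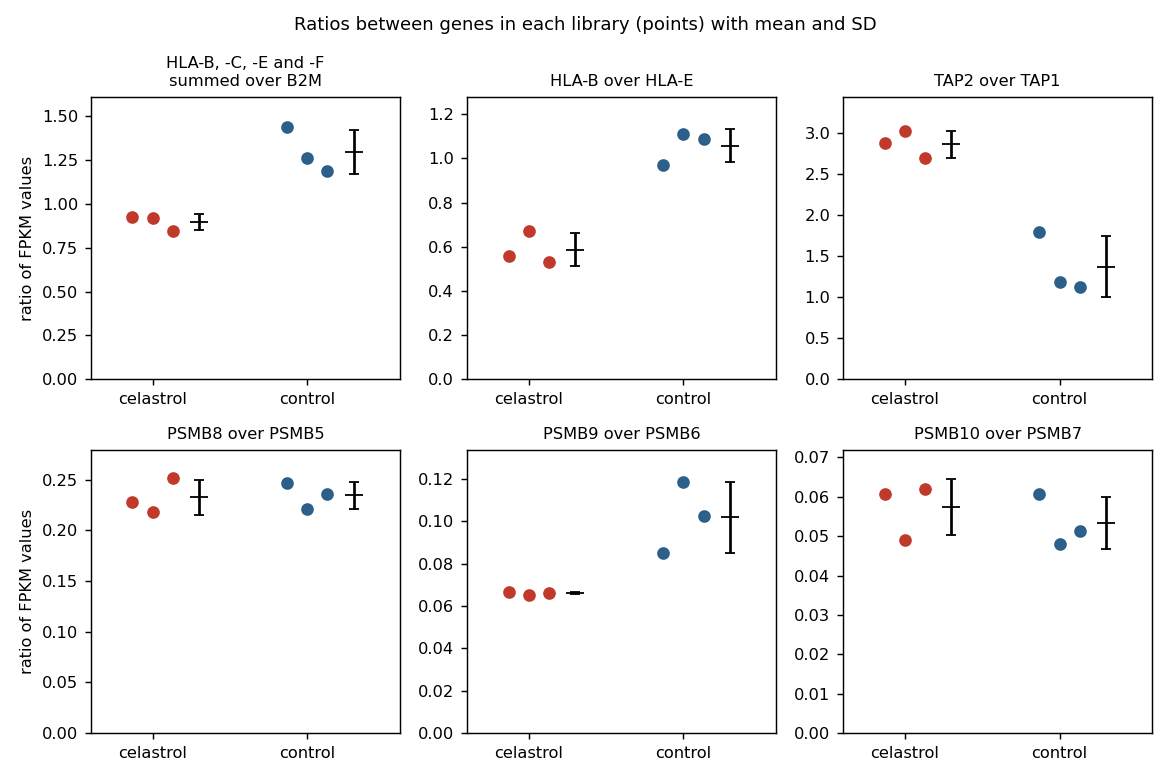
Ratio of FPKM values between genes in each library (y axes, linear, from 0), celastrol at the left and control at the right of each panel; points are libraries and the bar is the mean ± SD (n = 3). The heavy chain to B2M, HLA-B to HLA-E and PSMB9 to PSMB6 ratios are lower with celastrol and the TAP2 to TAP1 ratio is higher, while PSMB8 to PSMB5 and PSMB10 to PSMB7 overlap between the groups.

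Partners in peptide transport, loading and trimming mostly did not follow the heavy chain genes. Of 20 tested, 9 rose, 1 fell and 10 did not pass, with a median log2 fold change of 0.18. Of all genes tested, 23.6% rose and 24.8% fell, shares that apply beside every list count below. THOP1, a cytosolic peptidase, rose (84.8 ± 6.62 CPM with celastrol and 53.4 ± 9.24 CPM in controls, 0.67 ± 0.10, adjusted p = 6.73e-05). So did TAPBPL, which encodes the tapasin relative TAPBPR (0.53 ± 0.17, adjusted p = 0.0175), and CANX, the chaperone calnexin that folds new heavy chains (0.50 ± 0.053, adjusted p = 6.33e-07). BLMH, the cytosolic bleomycin hydrolase, fell (-0.43 ± 0.097, adjusted p = 0.00134). The loading complex chaperone genes CALR (-0.000722, adjusted p = 0.993) and PDIA3 (-0.08, adjusted p = 0.299) did not pass. HSPA5 had the lowest log2 fold change of this list but did not pass either (-0.57 ± 0.25, adjusted p = 0.130). It had 601, 637 and 618 CPM with celastrol and 641, 921 and 1188 CPM in controls, without overlap.

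Interferon-inducible proteasome subunits replace constitutive ones and change which peptides are cut. PSMB8 had 50.1, 46.0 and 54.4 CPM with celastrol and 43.4, 38.9 and 43.8 CPM in controls, and rose (0.25 ± 0.087, adjusted p = 0.0215). PSMB9 had 11.4, 11.6 and 11.8 CPM with celastrol and 12.4, 15.4 and 15.1 CPM in controls, without overlap, but did not pass (-0.30 ± 0.13, adjusted p = 0.0602). PSMB10 overlapped between the groups (0.34 ± 0.16, adjusted p = 0.0965). The constitutive counterparts PSMB5 (0.27 ± 0.060), PSMB6 (0.32 ± 0.066) and PSMB7 (0.23 ± 0.062) all rose, 3 of 3. Per length, the inducible subunits together stood at 0.113, 0.104 and 0.118 of the constitutive ones with celastrol and 0.122, 0.124 and 0.124 in controls (difference of log2 ratios -0.14, exact permutation p = 0.1). Without celastrol replicate 2 the difference was -0.0937. The 3 pairs were not alike. PSMB9 over PSMB6 was 0.0664, 0.0654 and 0.0663 with celastrol and 0.0849, 0.118 and 0.103 in controls, without overlap. PSMB8 over PSMB5 was 0.228, 0.218 and 0.252 with celastrol and 0.247, 0.221 and 0.235 in controls, and PSMB10 over PSMB7 was 0.0607, 0.0491 and 0.0621 with celastrol and 0.0607, 0.0481 and 0.0512 in controls. Both of these overlapped between the groups, and the single pairs were not tested. PSMB8 shares 20.6% of its exon bases with the antisense transcript PSMB8-AS1, which did not pass (0.60 ± 0.33, adjusted p = 0.144). Of the whole list of 8 tested inducible, activator and assembly genes, 4 rose and 1 fell (median 0.30). The activator genes PSME3 (0.62 ± 0.058, adjusted p = 1.75e-07) and PSME2 (0.37 ± 0.071, adjusted p = 0.000311) and the assembly factor gene POMP (0.36 ± 0.071, adjusted p = 0.000385) rose, and the activator gene PSME4 fell (-0.63 ± 0.067, adjusted p = 7.02e-07).

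**Figure D4:**
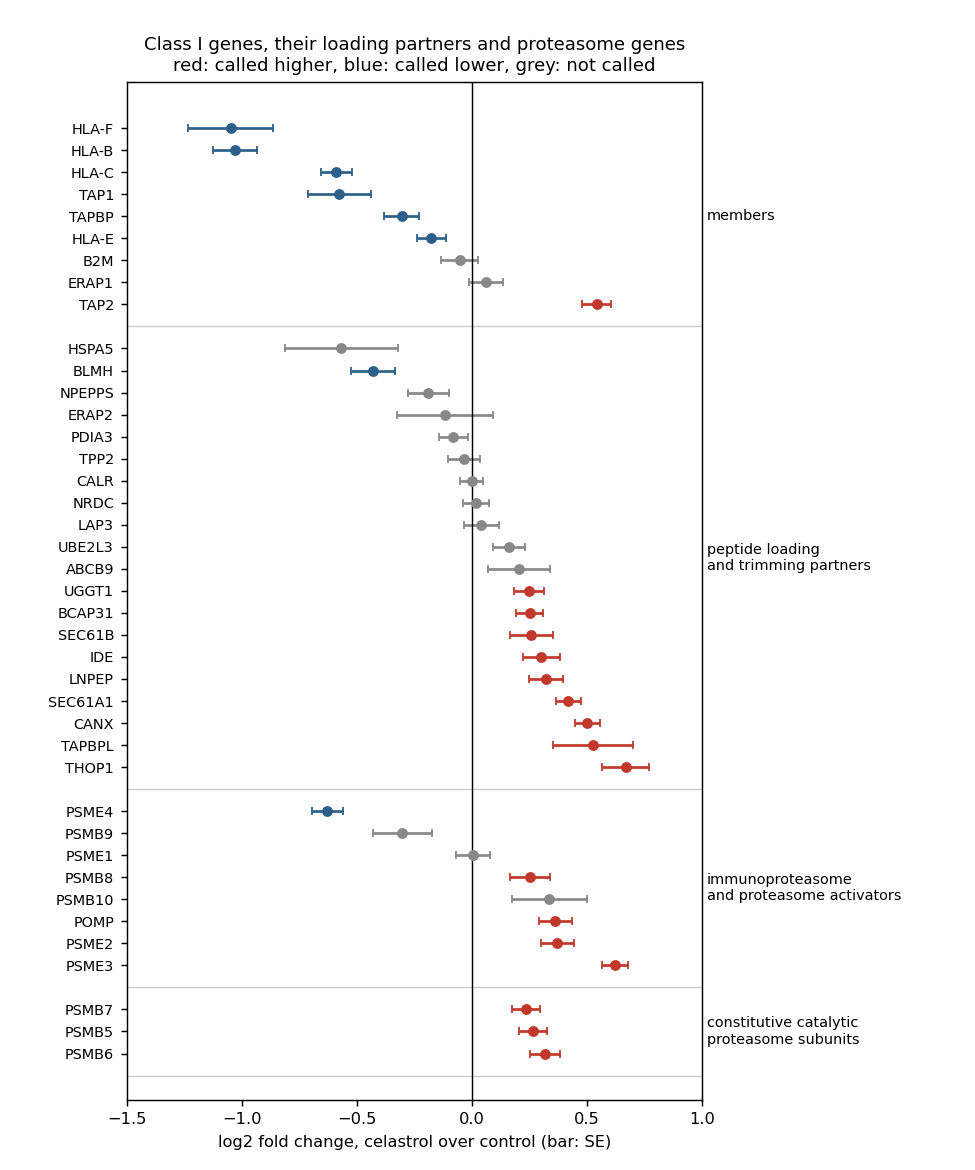
Log2 fold change, celastrol over control (x axis), with its SE, of the 9 class I genes (top block, headed members), their loading and trimming partners, the inducible proteasome genes and the constitutive catalytic subunits; colours give the call. Heavy chain genes and TAP1 lie at the left, and TAP2 lies at the right with most called partners and proteasome genes.

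Of 26 genes of factors known to act on class I promoters, 6 rose and 4 fell, against 23.6% and 24.8% of all genes. The other 16 did not pass, and the median was 0.11. The falls were in RELB (-1.99 ± 0.14, adjusted p = 8.18e-09) and NFKB2 (-1.72 ± 0.11, adjusted p = 1.47e-08), which encode partners in the non-canonical NF-kB dimer, in IRF2 (-0.69 ± 0.10, adjusted p = 2.7e-05) and in NFKB1 (-0.27 ± 0.078, adjusted p = 0.00732). RELB averaged 6.22 ± 0.532 CPM with celastrol and 24.7 ± 4.06 CPM in controls (SD, n = 3). RFXANK, a subunit of the X-box binding RFX complex (0.55 ± 0.10, adjusted p = 0.000242), NFYC, a subunit of the CCAAT-binding factor (0.47 ± 0.081, adjusted p = 0.000131), and ATF1 (0.42 ± 0.13, adjusted p = 0.0106) rose. NLRC5, the class I coactivator, averaged 4.75 ± 0.664 CPM with celastrol and 6.41 ± 0.706 CPM in controls and did not pass (-0.43 ± 0.18, adjusted p = 0.0543). IRF1, an interferon-induced activator, rose (0.33 ± 0.12, adjusted p = 0.0333).

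Of 13 tested genes of interferon receptors and their signalling, 6 fell and 1 rose (median -0.24), against 24.8% and 23.6% of all genes. The falls included the feedback inhibitor gene SOCS3 (-0.93 ± 0.13, adjusted p = 1.92e-05), IFNGR2, a chain of the interferon-gamma receptor (-0.65 ± 0.079, adjusted p = 3.31e-06), and JAK2, a kinase bound to it (-0.54 ± 0.14, adjusted p = 0.00288). IFNAR1, a chain of the type I interferon receptor, rose (0.50 ± 0.15, adjusted p = 0.0156). Among 13 tested class I and class I-like genes outside the 9, 3 rose and 2 fell (median -0.11). ULBP1, a stress ligand of the natural killer receptor NKG2D, had 43.6 ± 6.75 CPM with celastrol and 22.9 ± 3 CPM in controls (0.93 ± 0.12, adjusted p = 8.73e-06). The iron regulator gene HFE rose (1.15 ± 0.24, adjusted p = 0.000724), as did RAET1E, another NKG2D ligand gene whose level is under the minimum of the naming rule (1.82 ± 0.25, adjusted p = 1.01e-05). The NKG2D ligand gene MICA (-0.38 ± 0.079, adjusted p = 0.000677) and PROCR, the endothelial protein C receptor with a class I-like fold (-0.70 ± 0.063, adjusted p = 9.92e-08), fell. Of MHC class II and related genes, 7 of 15 could be tested and 1 fell, IFI30, a lysosomal reductase (-0.49 ± 0.15, adjusted p = 0.00942).

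Of 23 tested genes for class I traffic and turnover, 8 rose and 5 fell (median 0.0237), against 23.6% and 24.8% of all genes. Genes of a complex known to send class I molecules to lysosomes went both ways: the ubiquitin ligase gene WWP2 (0.76 ± 0.088, adjusted p = 1.73e-06) and its adaptor TMEM127 (0.74 ± 0.098, adjusted p = 7.94e-06) rose, and SUSD6 fell (-0.59 ± 0.11, adjusted p = 0.000323). The intramembrane protease gene SPPL2A rose (0.73 ± 0.12, adjusted p = 0.000101). MARCHF4, a membrane ubiquitin ligase gene (-0.66 ± 0.091, adjusted p = 1.83e-05), and EHD1, a recycling factor (-0.62 ± 0.082, adjusted p = 8.34e-06), fell. Of the other marker lists, ACTA2 fell in the stromal and epithelial list (1 of 4 tested), and in the mesenchymal and osteoblast list COL1A1 rose while VIM, RUNX2 and ALPL fell (of 6 tested).

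Position on chromosome 6 was shared by 7 of the 9 genes, which lie between the start of HLA-F (29723434) and the end of TAPBP (33314078). Of 102 other genes tested in this stretch, 33 rose and 11 fell, with a median log2 fold change of 0.12. That is 43.1% called and 10.8% called lower, against 48.4% and 24.8% of all genes tested. This region was chosen after the values of the 9 genes had been seen, and no test was run on it.

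**Figure D5:**
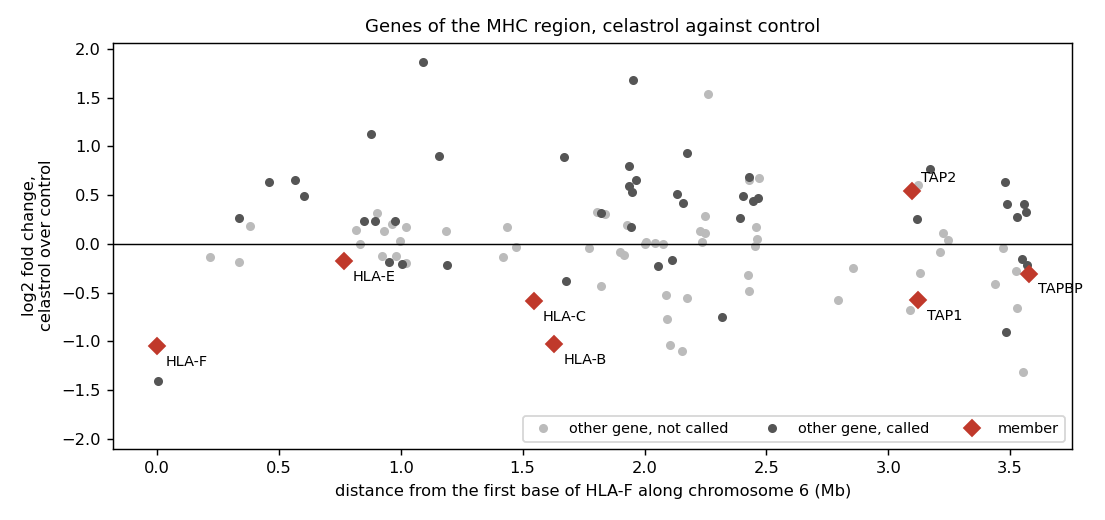
Log2 fold change, celastrol over control (y axis), of tested genes by distance along chromosome 6 from the start of HLA-F in Mb (x axis); diamonds are the named class I genes and circles the 102 other tested genes, dark where called. The heavy chain genes, TAP1 and TAPBP lie below 0, TAP2 lies above it, and of the called neighbours 33 lie above 0 and 11 below.

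Genes with the most similar pattern were found among 8690 genes at or above a log2 CPM of 4, by Euclidean distance over the 6 libraries between log2 CPM values centred on the mean of each gene. Nearest to HLA-B were ELL2 (distance 0.115), NRIP3 (0.116) and BMP2 (0.117). ELL2 had 63.3, 69.1 and 61.4 CPM with celastrol and 120, 143 and 147 CPM in controls. Nearest to B2M were RACGAP1 (0.0455), PRELID3B (0.0501) and SNAP23 (0.0617), and nearest to TAP1 were ABTB2 (0.153), CDR2 (0.165) and MAPKAPK5-AS1 (0.165). Among the 9 genes themselves the closest were HLA-E and TAPBP (0.232) and the farthest HLA-F and TAP2 (2.06), while B2M lay 1.23 from HLA-B and TAP1 lay 1.44 from TAP2. Such distances reflect the difference between the groups and what single wells share, and say nothing about control.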

How the data were processed

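Poly(A) RNA from 6 wells was sequenced on both ends after a strand-marking protocol, per the labels' protocols. The submitters' processing notes name build hg38, StringTie 2.1.6, HISAT2 2.2.1, edgeR, DESeq2 and cutadapt 1.9, and give neither their roles nor the counting settings. The deposited counts are whole reads per gene, not normalized. The FPKM values deposited by the authors equal these counts scaled by library total and by 1 length per gene, in 20198 genes with a count in 2 or more libraries.

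Counts were filtered with filterByExpr, scaled by TMM (CPM here is TMM-scaled) and tested in edgeR 4.0.16 (R 4.3.3), celastrol over control without covariates. The SE is the absolute log2 fold change over the root of F. Alternatives used limma 3.58.1 and DESeq2 1.42.0. The test was also run on counts simulated from its own fitted dispersions with few genes changed, a setting unlike these data, where 48.4% were called. Replicate libraries were not copies of each other (chi-square over degrees of freedom 6.49 to 20.9). Coordinates and promoters are from RefSeq GRCh38.p14, overlaps from GENCODE 29.

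The 9 genes, the lists and the tests were chosen with earlier results of these data known. Named from each list were the 3 called genes with the largest change in each direction at a log2 CPM of at least 2. The 9 genes and the catalytic proteasome genes were named besides. Other names (CALR, PDIA3, HSPA5, NLRC5, IRF1, NFKB1, RAET1E, ALPL, HLA-F-AS1, HLA-DOB, PSMB8-AS1 and genes near 0) are examples chosen after their values were seen. Exact permutation tests were two-sided.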

Additional observations from a re-analysis of the deposited data

How the results depend on the processing

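Directions of 8 of the 9 genes held in every alternative run; B2M turned to 0.019 without control replicate 3, and was called lower at -0.16 without control replicate 1. Calls of HLA-B, HLA-C, HLA-F, TAP1, TAP2 and TAPBP held in each. HLA-F was not tested where at least 10 CPM were required in 3 libraries, and limma on log2(FPKM + 1) gave it a log2 fold change of -0.52. Without 1 library at a time, 5 to 7 of the 9 genes were called lower and 1 higher, over all genes 3145 to 4067 were called lower and 2932 to 4043 higher, the difference in the heavy chain to B2M log2 ratio ran from -0.59 to -0.45, that of the inducible to constitutive proteasome log2 ratio from -0.19 to -0.0937, and that of the summed share from -0.0128 to -0.00736 percentage points. Without both celastrol replicate 2 and control replicate 1, 6 were lower and 1 higher. With replicate number as a block, 6 of the 9 genes were called lower and 1 higher, and 3928 and 3831 of all genes; every celastrol library correlated best with the control of its own number, but only at 0.0341 to 0.0582, and the labels state no pairing. Depth limits HLA-F most, at 146 to 379 counts per library.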
